A study of Mus musculus with 72 samples.

Results

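The microRNAs (miRNAs) of the mouse lung were compared between 3 mice given a single whole-body X-ray dose of 12 Gy and 3 sham-irradiated mice (0 Gy), 48 h after exposure. Each lung was read on its own Agilent 1-colour miRNA array, and these 6 arrays were taken by their titles from the 72 arrays of the series, which also covers liver, mRNA and the doses 1, 2, 4 and 8 Gy. All mice were C57BL/6 J females of 6 to 8 weeks, and the X-rays were delivered at 1.05 Gy/min. The array carried probes for 1881 mouse miRNAs, and all of them were members of the comparison. Of these, 418 miRNAs, measured by 762 probes, rose above the local background on at least 1 of the 18 lung miRNA arrays and were tested, and 1463 did not and were not tested.

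miRNAs are short RNAs that guide the silencing complex to messenger RNAs, mostly through the seed, the bases next to the 5′ end. In lung they come from epithelium, endothelium, stroma and the blood cells held in the vessels, and several are so restricted to one lineage that they are used as marks of it. Ionizing radiation activates p53, which raises transcription of the miR-34 genes, and it kills lymphocytes and dividing progenitors.

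Sequences are shown for the miRNAs on which the comparison turned and for relatives that share a seed with them. They are mature sequences from RefSeq (mouse GRCm38.p6), 5′ to 3′, with the seed (bases 2 to 8) in capitals. A mature sequence was found for 354 of the 418 tested miRNAs. The first set is miR-34a-5p with 2 relatives of the same seed, GGCAGUG.
miR-34a-5p: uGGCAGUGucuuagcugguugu
miR-34b-5p: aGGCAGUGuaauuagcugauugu
miR-449a-5p: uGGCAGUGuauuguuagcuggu
The gene of miR-34a-5p lies at chr4:150068473-150068494 on the plus strand. The second set holds both arms of one blood cell hairpin, with different seeds, and further leukocyte miRNAs.
miR-142a-5p: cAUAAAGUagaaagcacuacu
miR-142a-3p: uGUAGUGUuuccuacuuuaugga
miR-223-3p: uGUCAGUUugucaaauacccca
miR-342-3p: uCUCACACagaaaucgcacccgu
miR-155-5p: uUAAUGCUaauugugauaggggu
The 2 arms of miR-142a lie at chr11:87756867-87756887 and chr11:87756903-87756925 on the plus strand. The third set is miR-130b-3p, which fell, and 2 miRNAs with its seed, AGUGCAA, which did not pass the test.
miR-130b-3p: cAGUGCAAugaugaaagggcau
miR-130a-3p: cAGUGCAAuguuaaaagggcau
miR-301a-3p: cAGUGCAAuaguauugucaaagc
miR-130b-3p lies at chr16:17124071-17124092 on the minus strand. The last set shows a member of the miR-17-92 cluster, which was lower, and 2 GC-rich miRNAs, which were higher.
miR-20a-5p: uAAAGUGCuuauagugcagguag
miR-5126: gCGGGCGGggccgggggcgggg
miR-3102-5p: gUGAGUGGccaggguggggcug

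The array position has to be known before the values are read. The 3 lung arrays at 0 Gy shared a slide with those at 1 Gy, and the 3 at 12 Gy shared another slide with those at 8 Gy. No slide held both 0 and 12 Gy, so slide and dose cannot be told apart in the comparison of 12 with 0 Gy. On the 0 Gy arrays the median spot intensity was 68.5 to 105 and the median local background 31 to 41, against 42.5 to 49 and 23 to 25.5 at 12 Gy. The number of miRNAs above background was 249 to 339 at 0 Gy and 343 to 358 at 12 Gy. No spot was saturated. Levels below are log2 normalized intensities of the brightest probe of a miRNA, listed for 0 Gy mice 1, 11 and 21 and then for 12 Gy mice 6, 16 and 26. Differences are log2 (12 Gy over 0 Gy) ± standard error (SE) from limma, with p adjusted by the Benjamini-Hochberg method over the 762 probes. Nothing in the labels says that mice of a group were housed or processed apart. The tests measure the spread between mice within a dose, pooled over the 18 lung arrays of the 6 dose groups. A shift between the 0 Gy and 12 Gy slides is not part of that spread.

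At 12 Gy, 5 miRNAs passed both thresholds, an absolute log2 difference above 1 and an adjusted p below 0.05. miR-34a-5p was the one that rose, and miR-142a-5p, miR-142a-3p, miR-150-5p and miR-130b-3p fell. They correspond to 9 of the 762 probes, or 1.18%. At the adjusted p alone 39 miRNAs fell and 34 rose, from 62 probes lower (8.14%) and 46 higher (6.04%). The median difference over all probes was 0.07 and their median SE 0.11. Without 0 Gy mouse 11 the count of 5 became 8, without 12 Gy mouse 26 it became 11, and the 34 higher miRNAs became 75 without mouse 11 and 22 without 0 Gy mouse 21 or 12 Gy mouse 16. Scaling the arrays to the 75th percentile of all probes, in place of quantiles, moved the median of all probes to 0.79 and the split of the probes past both thresholds from 7 lower and 2 higher to 0 lower and 44 higher, so every fall given here is relative to the other miRNAs. That percentile was taken over all 4415 probes, of which 762 were above background on any lung array. Scaled instead to probes above background on all arrays, the median was -0.04, with 14 probes lower and 1 higher past both thresholds.

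miR-34a-5p, a direct p53 target that acts against cell cycle genes, had levels of 12.18, 12.21 and 12.05 at 0 Gy and 13.13, 13.25 and 13.16 at 12 Gy. Every irradiated mouse lay above every control, and within each dose the 3 mice stayed close together. The difference was 1.03 ± 0.06 (95% interval 0.89 to 1.17, n = 3 and 3), a 2.04-fold rise, with an adjusted p of 3.69e-08 in limma. Its second probe gave 1.08.

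miR-142a-5p, made almost only in blood cells, had levels of 10.51, 10.59 and 10.78 at 0 Gy and 8.67, 8.58 and 8.88 at 12 Gy. The groups stood far apart, with 26.5% of the control level left. This was the largest fall among the 5 miRNAs, at -1.92 ± 0.11 (95% interval -2.16 to -1.68), with an adjusted p of 3.69e-08 in limma. miR-142a-3p, the other arm of the same hairpin and the brighter of both, had levels of 13.59, 13.83 and 13.95 at 0 Gy and 12.07, 12.18 and 12.45 at 12 Gy. Again no irradiated mouse reached a control. The difference was -1.56 ± 0.12, a 2.95-fold fall, with an adjusted p of 2.81e-07 in limma. In whole lung, fewer cells of a type and less of a miRNA per cell cannot be told apart, here and for every miRNA below.

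miR-150-5p is abundant in mature B and T lymphocytes and is taken as a mark of them. Its levels were 9.23, 9.50 and 9.56 at 0 Gy and 7.82, 7.68 and 7.96 at 12 Gy. The groups did not overlap, and the fall of 3.04-fold (-1.61 ± 0.11, adjusted p 4.70e-08 in limma) was of the size seen for miR-142a-3p. miR-130b-3p, a member of the miR-130 and miR-301 family, had levels of 8.28, 8.02 and 8.30 at 0 Gy and 7.05, 7.14 and 7.36 at 12 Gy. All 3 irradiated mice were lower, by -1.02 ± 0.10 (adjusted p 7.14e-06 in limma), and its dimmer probe gave -0.92, inside the fold threshold. Its relatives with the same seed gave -0.10 (miR-130a-3p, adjusted p 0.236) and 0.07 (miR-301a-3p, adjusted p 0.551), and neither passed the test in limma. The fourth tested miRNA of that seed, miR-721, was not above background on any 0 Gy array and above it on 2 of 3 at 12 Gy. With lower 0 Gy values raised to the dimmest level above background on their array, it was an estimated 1.88-fold higher at 12 Gy. It did not pass either (adjusted p 0.0871 in limma). Of the 5 miRNAs, miR-130b-3p was the one that most often left the group past both thresholds: it did so with offset 50, with probes averaged, with outlier spots kept, with the 6 arrays alone, with both tissues together, with the all-probe percentile scaling, and without mouse 1, 21, 6 or 16. Among these its adjusted p was above 0.05 under the percentile scaling alone (0.42). Without both 0 Gy mice 1 and 21, a setting added after the data were seen, miR-130b-3p (-0.86) and miR-34a-5p (0.97) fell short of the fold threshold.

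**Figure D1:**
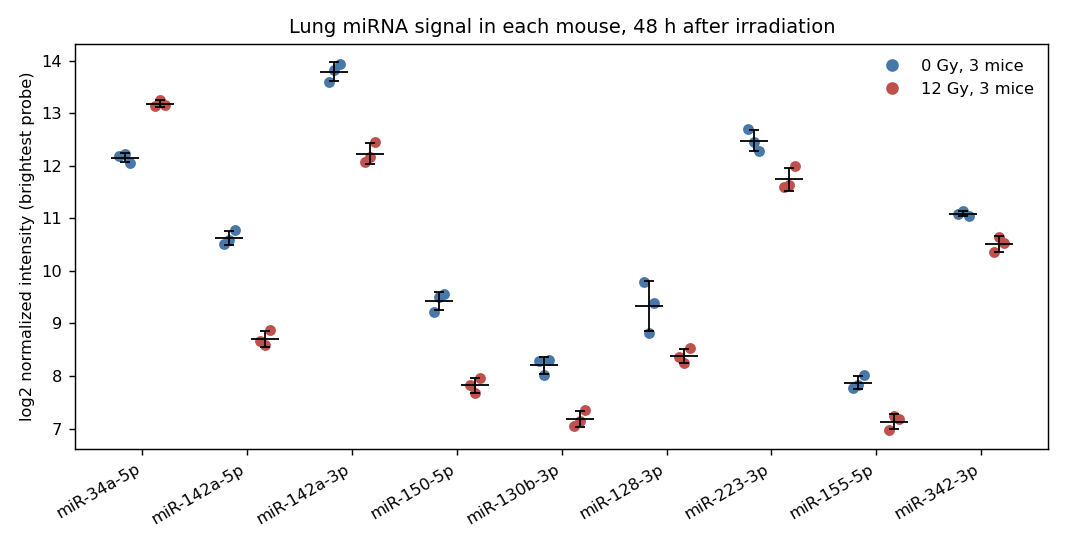
Log2 normalized intensity (y axis) in each mouse at 0 and 12 Gy for 9 of the miRNAs named in the text, 1 point a mouse with the mean and SD of 3. For miR-34a-5p the 12 Gy points lie at 13.13 to 13.25 above controls at 12.05 to 12.21, and for miR-142a-5p they lie at 8.58 to 8.88 below controls at 10.51 to 10.78.

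**Figure D2:**
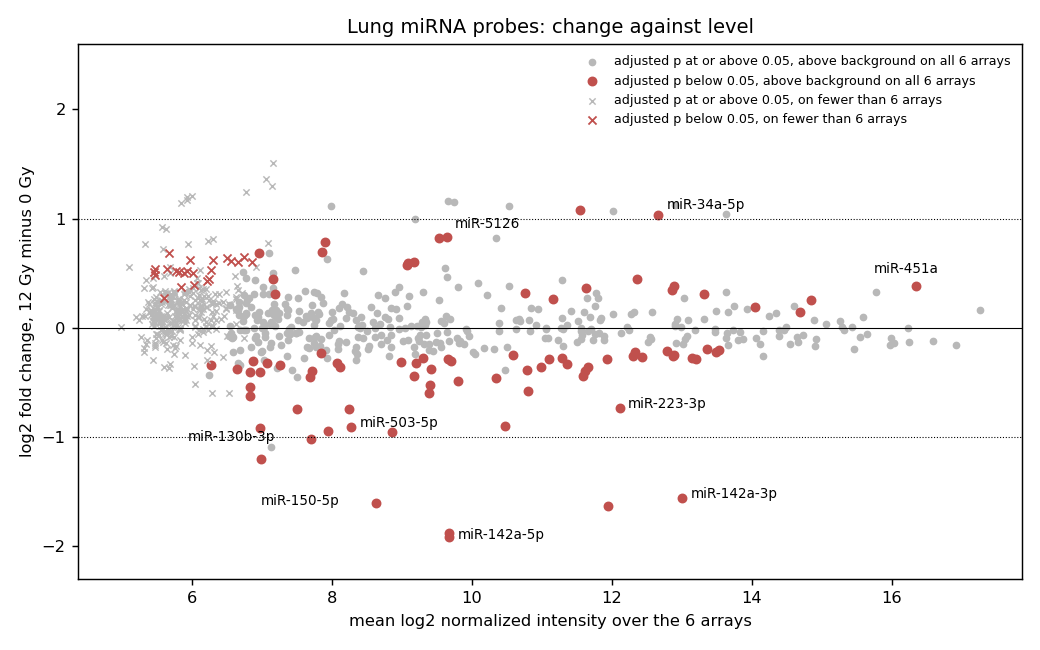
Log2 difference of 12 Gy from 0 Gy (y axis) against the mean log2 intensity over the 6 arrays (x axis) for the 762 probes. Red marks an adjusted p below 0.05, crosses mark probes above background on fewer than 6 arrays, and dotted lines mark the fold threshold, with 7 red probes below the lower and 2 above the upper line; every probe that was lower past the adjusted p was above background on all 6 arrays.

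Most leukocyte miRNAs fell. Of 12 listed, 10 were tested, 7 fell past the adjusted p on at least 1 probe and 0 rose, beside 39 and 34 of all 418 miRNAs tested. The list's median difference was -0.66, beside 0.07 over all 418 tested miRNAs. It turned to 0.21 under the all-probe percentile scaling, 0.58 below the median of all probes there. Besides the 3 already given, miR-223-3p, a myeloid miRNA most abundant in neutrophils, had levels of 12.70, 12.45 and 12.29 at 0 Gy and 11.60, 11.64 and 11.99 at 12 Gy. The groups were separate, and the difference was -0.74 ± 0.11 (adjusted p 0.000372 in limma). miR-342-3p, encoded in an intron of the Evl gene, fell by less, from levels of 11.08, 11.13 and 11.05 to 10.35, 10.64 and 10.54 (-0.58 ± 0.09, adjusted p 0.000612 in limma). miR-155-5p and miR-146a-5p, induced in activated immune cells and named here after their values were seen, gave -0.74 ± 0.08 and -0.40 ± 0.06, both past the adjusted p in limma. miR-181a-5p, with 0.09 and an adjusted p of 0.31, had overlapping groups, and miR-181b-5p (-0.24) and miR-342-5p (-0.22) did not pass. miR-150-3p and miR-223-5p were not above background on any lung array.

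Relatives of the miR-17-92 cluster, whose members drive proliferation and lymphocyte survival, were lower by small amounts. Of 11 tested, 6 fell and 0 rose, beside 39 and 34 of all 418 miRNAs tested. The list's median of -0.20 turned to 0.60 under the all-probe percentile scaling. miR-20a-5p gave levels of 11.90, 11.74 and 11.87 at 0 Gy and 11.55, 11.48 and 11.40 at 12 Gy (-0.36 ± 0.07, adjusted p 0.00215 in limma). miR-19b-3p gave levels of 13.37, 13.21 and 13.27 and then 13.02, 13.04 and 12.95 (-0.28 ± 0.06, adjusted p 0.00415 in limma). In both, each irradiated mouse lay below each control, though the shift was under a unit of log2. At chr14:115043684-115044496 (plus strand) 5 of 8 miRNAs fell, and at chrX:52741854-52742181 (minus strand) 3 of 3, where miR-19b-3p and miR-92a-3p come from both sites and each has 1 measured value. The paralogous cluster miR-25, miR-93 and miR-106b in the gene Mcm7 had 0 of 3 past the adjusted p, and miR-106b-5p stayed at 12.16, 12.15 and 12.13 against 12.14, 12.08 and 12.08 (-0.05 ± 0.05).

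The miR-15 and miR-16 family, which restrains cyclins, had 4 of 6 members lower past the adjusted p, beside 39 of all 418 miRNAs tested. Its median was -0.10, and miR-16-5p and miR-195a-5p passed through their dimmer probes alone. Both this median and that of the let-7 family turned positive under the all-probe percentile scaling (0.73 and 0.74). In the let-7 family, repressors of growth genes and among the brightest miRNAs of the lung, 3 of 10 fell, each through its dimmer probe, with a median of -0.14. let-7a-5p, for example, had levels of 16.14, 16.02 and 15.98 at 0 Gy and 15.82, 15.99 and 15.88 at 12 Gy, which touched between the groups. miR-503-5p, from the X-linked cluster it shares with miR-322-5p, and miR-128-3p, both named after their values were seen, were lower by more, at -0.91 ± 0.11 and -0.95 ± 0.18 (adjusted p 6.14e-05 and 0.00169 in limma). The 3 controls of miR-128-3p spread from 8.83 to 9.79, and the irradiated mice from 8.26 to 8.53.

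The miR-34 and miR-449 family, which in lung is also expressed by ciliated epithelium, was higher in part. Of 8 members tested, 5 rose past the adjusted p and 0 fell, beside 34 and 39 of all 418 miRNAs tested. The family's median was 0.35, beside 0.07 over all tested miRNAs. miR-34c-5p had levels of 12.90, 12.83 and 12.36 at 0 Gy and 13.01, 13.18 and 13.06 at 12 Gy. The groups were separate, but by little, and the difference was 0.38 ± 0.12 (adjusted p 0.0404 in limma). miR-34b-3p and miR-34c-3p passed through their dimmer probes (0.61 each) and not their brighter ones (0.52 and 0.30). miR-34a-3p, the less stable arm of miR-34a, was not above background on any 0 Gy array and on 1 of 3 at 12 Gy. With its 0 Gy values raised as for miR-721, it was an estimated 1.02-fold higher at 12 Gy. It is 1 of the 5 that passed (0.49, adjusted p 0.000125 in limma), on values near background. miR-34b-5p (0.33, adjusted p 0.0703) and miR-449a-5p (0.32, adjusted p 0.161) did not pass in limma.

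Of the erythroid miRNAs, miR-451a rose on its brightest probe. miR-451a, the most abundant miRNA of red cells, had levels of 16.07, 16.18 and 16.21 at 0 Gy and 16.63, 16.39 and 16.57 at 12 Gy. Its difference was 0.38 ± 0.12 (adjusted p 0.042 in limma), with no overlap. miR-486a-5p, which is also abundant in red cells and in muscle, gave 0.55 ± 0.19 (adjusted p 0.072) on its brighter and 0.57 (adjusted p 0.0329) on its dimmer probe. Of 6 erythroid miRNAs tested 2 rose, counting the dimmer probe of miR-486a-5p, and 0 fell, beside 34 and 39 of all 418 miRNAs tested. Their median was 0.33, and miR-144-3p and miR-144-5p, from the hairpin beside miR-451a, gave 0.27 and 0.33 without passing.

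Few miRNAs of the fixed tissue passed the test, beside 39 lower and 34 higher of all 418 tested. At those shares lists of this size would hold few such miRNAs, so the counts do not set them apart. Of the epithelial miRNAs, the miR-200 family with miR-141 and miR-375, 0 of 6 passed in either direction in limma, with differences from 0.01 to 0.18. Among 11 smooth muscle and fibroblast miRNAs, including miR-143-3p, miR-21a-5p and the miR-29 family, 0 passed and the range was -0.11 to 0.21. In the endothelial pair, miR-126a-3p (16.64, 16.67 and 16.65 against 16.42, 16.63 and 16.55) did not pass, and miR-126a-5p did on its brighter probe (-0.28 ± 0.07, adjusted p 0.0176 in limma) with its dimmer probe at 0.08 and the brighter one at 0.62 under the all-probe percentile scaling. miR-30d-5p, named after its values were seen, rose from levels of 12.71, 12.66 and 12.69 to 12.92, 13.01 and 13.14 (0.34 ± 0.06, adjusted p 0.000814 in limma).

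**Figure D3:**
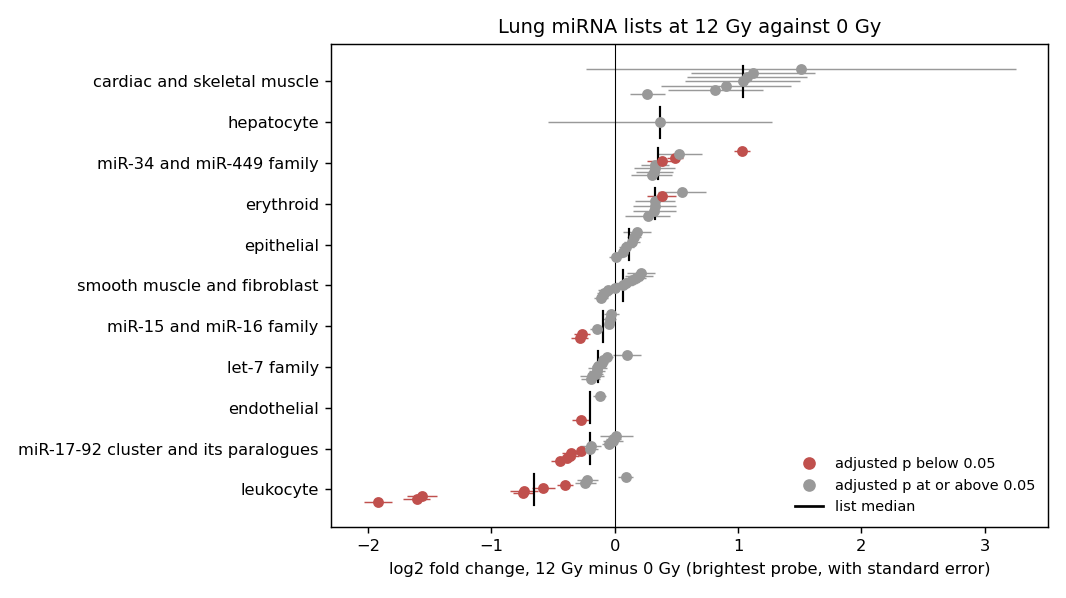
Log2 difference of 12 Gy from 0 Gy (x axis) for each tested miRNA of the lists (rows), 1 point for the brightest probe of each miRNA with its SE, red where the adjusted p is below 0.05, and a bar at the list's median. The leukocyte median lies at -0.66 and the miR-34 and miR-449 median at 0.35.

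Among the miRNAs that the study names, miR-5126, miR-3102-5p and miR-3960 rose as well. miR-5126, with a GC share of 100%, had levels of 9.48, 9.16 and 9.01 at 0 Gy and 10.18, 10.19 and 9.79 at 12 Gy (0.83 ± 0.19, adjusted p 0.00646 in limma). miR-3102-5p had levels of 7.60, 7.53 and 7.37 and then 8.19, 8.43 and 8.24 (0.79 ± 0.11, adjusted p 0.000141 in limma), and miR-3960 gave 0.61 ± 0.14. All 3 were separate between the groups. The median GC share was 59.98% for the 28 miRNAs higher past the adjusted p that have a sequence, 40.9% for the 35 lower ones and 47.8% for all 354, while the median G share of the higher ones was 24.9%, against 25% for all. Of the 46 higher probes 23 were above background on all 6 arrays, and the 11 miRNAs with such probes and a sequence had a median GC share of 45.5%. The intensity and local background of the 0 Gy slide, given above, differed in the same comparison, and their part in these values was not tested. miR-211-3p (1.30 ± 0.48) and miR-8110 (1.15 ± 0.44) had 2 irradiated mice high and mouse 26 close to the controls, at 6.92 and 9.36, and did not pass (adjusted p 0.081 and 0.093 in limma). Together with miR-34a-5p, miR-223-3p, miR-342-3p and both arms of miR-142a, they belong to 12 miRNAs named by the study, of which 10 were tested, 4 fell and 4 rose, beside 39 and 34 of all 418 tested. The study drew that list from its liver arrays, not from these lung arrays.

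The 5 miRNAs were also read at the lower doses. The 1 Gy arrays lay on the slide of the controls, the 8 Gy arrays and 2 of 3 at 4 Gy on the slide of the 12 Gy arrays, and the others on another one. These comparisons share the 3 control mice with that at 12 Gy. For miR-34a-5p the difference from 0 Gy, taken from the lowest dose to the highest, was 0.47, 0.89, 0.88, 1.00 and 1.03. For miR-142a-5p it was -0.77, -1.35, -1.60, -1.70 and -1.92 in the same order, and for miR-150-5p -0.46, -0.87, -1.25, -1.32 and -1.61. These 3 stood apart from 0 Gy at the lowest dose and were farthest from it at 12 Gy. miR-142a-3p gave -0.66 at 1 Gy and -1.40 at 2 Gy, after which it stood between -1.45 and -1.56, and miR-130b-3p gave -0.52, -0.42, -0.85, -0.92 and -1.02.

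The 1 Gy mice lay on the same slide as the controls, so the slide was held constant in that comparison. In it 11 of 762 probes passed the adjusted p, or 1.44%, and none of the 5 miRNAs reached the fold threshold there. Both probes of each of the 5 were among the 11, and the other was miR-135a-1-3p (-0.52), which gave 0.13 at 12 Gy. miR-34a-5p at 1 Gy had levels of 12.66, 12.54 and 12.64 (0.47, adjusted p 0.00167 in limma) and miR-142a-5p had 9.92, 9.68 and 9.99 (adjusted p 0.00184 in limma). Neither touched its controls. The adjusted p was 0.00762 for miR-142a-3p, 0.0139 for miR-130b-3p and 0.0482 for miR-150-5p in limma. miR-5126 at 1 Gy gave -0.24 (adjusted p 0.640 in limma), and so was not higher there.

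**Figure D4:**
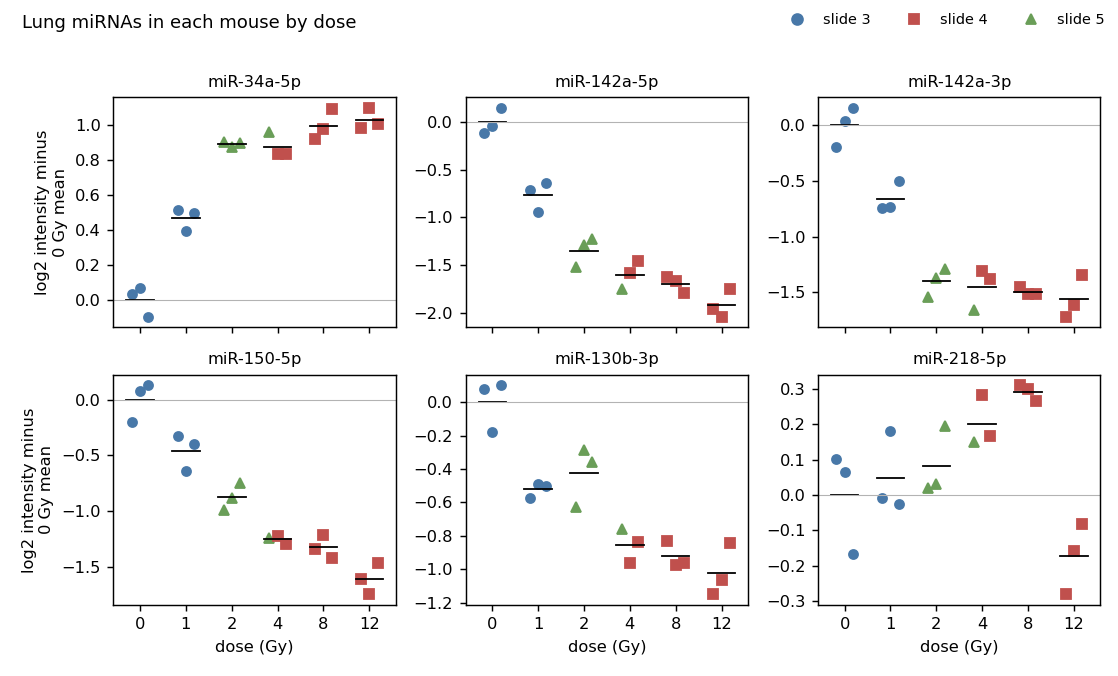
Log2 intensity minus the 0 Gy mean (y axis) in each mouse by dose in Gy (x axis) for the 5 miRNAs and miR-218-5p, with a bar at each mean and the slide given by colour and shape. The means of miR-34a-5p run from 0.47 to 1.03 and those of miR-142a-5p from -0.77 to -1.92 over the irradiated groups.

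Against 8 Gy, the nearest dose and on the same slide, 12 Gy differed little. No miRNA passed both thresholds in limma, and 2 of 762 probes (0.262%) passed the adjusted p, with 109 at an unadjusted p below 0.05. Both probes were of miR-218-5p, a miRNA of neurons and of mesenchymal cells encoded within the Slit genes. Its levels were 10.90, 10.89 and 10.85 at 8 Gy and 10.31, 10.43 and 10.51 at 12 Gy (-0.47 ± 0.08, adjusted p 0.0253 in limma), while it did not differ past the threshold from 0 Gy (-0.17, adjusted p 0.169). The 5 miRNAs differed between 12 and 8 Gy by 0.03 (95% interval -0.11 to 0.17) for miR-34a-5p, -0.06 (-0.32 to 0.20) for miR-142a-3p and -0.10 (-0.32 to 0.12) for miR-130b-3p. For miR-142a-5p the value was -0.22 (-0.46 to 0.02) and for miR-150-5p -0.28 (-0.51 to -0.06), with adjusted p of 0.391 and 0.209 in limma.

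A fit of the lung and liver arrays together, with the slide as a term, was added after the data were seen, since liver groups lie differently over the slides. It assumes that a slide shifts both tissues alike. Lung values in it were -1.84 ± 0.32 (adjusted p 0.00202) for miR-142a-3p, -1.68 ± 0.36 (adjusted p 0.00704) for miR-150-5p and 1.104 ± 0.32 (adjusted p 0.0431) for miR-34a-5p in limma. miR-142a-5p gave -2.52 ± 0.79 (adjusted p 0.0643) and miR-130b-3p -0.97 ± 0.33 (adjusted p 0.0922), which no longer passed on their brightest probes. Both still passed through their other probes, so all 5 miRNAs remained past both thresholds. Of the 62 lower probes 61 kept their sign, and of the 46 higher ones 28 did. The median SE of these probes was 0.27 and 0.42, against 0.08 and 0.12 without the term. Over all 780 probes of the joint fit the median lung difference was -0.20 with the term and 0.05 without it. Lower probes could thus keep their sign more readily than higher ones.

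Liver arrays at the same doses were used to see which of these changes differed by tissue. In the joint fit 21 of 780 probes (2.69%), from 18 miRNAs, differed in their response past the adjusted p. The dimmer probes of miR-150-5p (-0.82 ± 0.11, adjusted p 2.84e-05 in limma) and miR-130b-3p (-0.67 ± 0.18, adjusted p 0.0426) were among them. Neither was above background on a liver array at 0 or 12 Gy, so their liver response could not be measured. Their brighter probes did not pass, nor did these with slide as a term (adjusted p 0.124 and 0.18 in limma). The fall of miR-142a-3p was -1.61 in lung and -0.95 in liver, a difference of -0.66 ± 0.17 (adjusted p 0.0346 in limma, and 0.542 with slide as a term). For miR-342-3p the dimmer probe gave -0.42 in lung and -1.46 in liver (difference 1.04 ± 0.26, adjusted p 0.0346 in limma), and the brighter probe did not pass. With slide as a term the dimmer probe's difference turned to -0.70 ± 0.45 (adjusted p 0.663 in limma). For miR-34a-5p, the lung rise of 1.05 and the liver rise of 1.37 did not differ past the threshold (-0.31 ± 0.19, adjusted p 0.36 in limma), nor did the falls of miR-142a-5p (0.02 ± 0.45, adjusted p 0.972). For miR-30d-5p the lung difference exceeded that in liver by 0.56 ± 0.10 (adjusted p 0.00128 in limma), and with slide as a term by 0.21 ± 0.25 (adjusted p 0.845 in limma), which did not pass. The number of miRNAs that differed ranged from 2, without mouse 21, to 87, without mouse 6, when each mouse was left out in turn.

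mRNA arrays of lungs with the same sample numbers gave cell type markers beside the miRNAs. Here too the 0 and 12 Gy arrays lay on different slides, and 7.8% of 43979 probes were lower and 13.5% higher past the adjusted p, with a median of 0.09. Sftpc, the defining surfactant gene of alveolar type II cells, was bright in all 6 lungs, at 18.45 in each control and 18.20 to 18.45 at 12 Gy, near the top of the intensity range, where Scgb1a1, the secretory cell marker, had the same value on all 6 arrays. Of 9 lung epithelial markers 1 was lower and 0 higher. The lower one was Sftpb, another surfactant gene, with levels of 16.94, 16.79 and 16.41 at 0 Gy and 15.59, 15.54 and 15.49 at 12 Gy (-1.18 ± 0.39, adjusted p 0.0422 in limma). Endothelial markers had 1 of 6 lower.

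Lymphocyte genes fell. Of 14 B cell markers tested 12 were lower, against 7.8% of all mRNA probes, with a median of -3.75. Their summed intensity was 22671 to 48730 at 0 Gy and 4852 to 6188 at 12 Gy. Bank1, Blk, Cd22, Cd79a, Cr2, Cxcr5, Fcer2a and Pax5 were not above background on any 12 Gy array. The size of their falls, and of the median, thus rests in part on the background level. Ms4a1, the B cell surface protein CD20, had levels of 11.33, 12.53 and 13.17 and then 6.16, 6.09 and 7.27. Of 13 T cell markers 12 were lower, with a median of -2.75, a summed intensity of 15801 to 62289 at 0 Gy and 4393 to 6368 at 12 Gy, and Cd3e, a subunit of the T cell receptor complex, at -3.74 ± 0.36. Bcl11b, Cd8a and Cd8b1 were not above background on any 12 Gy array. The summed ranges of both lists did not overlap between doses, and the leukocyte miRNAs above fell at the same dose. How far the one accounts for the other was not tested.

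Neutrophil markers were mostly not lower, beside the fall of miR-223-3p. Of 14 tested 4 were higher (Lcn2, Mmp8, S100a9 and Stfa2l1) and 1 lower (Camp, -2.43), against 13.5% and 7.8% of all mRNA probes. Their median was 0.46 and their summed intensity 68216 to 84330 at 0 Gy and 100498 to 111416 at 12 Gy. That sum rests mostly on the brightest genes, Lcn2, Csf3r, S100a9 and Ltf. Ly6g (-1.01 ± 0.36, adjusted p 0.0562 in limma) and Ngp (-1.59 ± 0.63, adjusted p 0.0842) were lower without passing. The others that did not pass had positive differences. Erythroid mRNAs fell in part, beside the rise of miR-451a. Of 12 tested 6 were lower and 1 higher, against 7.8% and 13.5% of all mRNA probes, with a median of -0.39. Their summed intensity was 25064 to 26465 at 0 Gy and 15611 to 19086 at 12 Gy. The fall of this sum rests on Alas2, the brightest of the 12 in each control, and does not speak for the list. Of the lower ones, Epb42 was not above background on any of the 6 arrays and Kel only on 1, at 0 Gy. Slc4a1 and Trim10 were not above it on any 12 Gy array. Alas2, the first enzyme of erythroid haem synthesis, had levels of 13.61, 13.83 and 13.50 and then 7.21, 7.01 and 6.64 (-6.69 ± 0.43, adjusted p 1.27e-07 in limma), a near loss in every irradiated mouse. Hemgn, also erythroid, was the higher one (0.74 ± 0.14).

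Most p53 target genes rose, as did miR-34a-5p. Of 20 targets tested 16 were higher and 0 lower, against 13.5% and 7.8% of all mRNA probes, with a median of 1.45. Cdkn1a, the cell cycle inhibitor p21, had levels of 11.40, 11.82 and 11.52 at 0 Gy and 15.29, 15.06 and 15.33 at 12 Gy, a 12.5-fold rise. Gdf15 (4.50 ± 0.17) and Eda2r (4.46 ± 0.18), a secreted stress factor and a death receptor, rose the most. Of 20 proliferation genes 15 were lower and 0 higher, with a median of -1.38, led by Mki67 (-3.35 ± 0.42), a mark of cycling cells. Their summed intensity was 7994, 10628 and 23032 in control mice 1, 11 and 21, and 3504 to 5179 at 12 Gy. Ccnb2, counted as lower, overlapped between the groups (8.63 in control mouse 1, 8.70 in irradiated mouse 16). Without mouse 21, genes of all lists lower past the adjusted p went from 51 to 39.

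Genes that carry a miRNA in an intron were set beside that miRNA. Of 15 host genes 3 were lower and 2 higher, with 7.8% of all mRNA probes lower and 13.5% higher. Evl, the host of miR-342, had levels of 13.38, 13.40 and 13.57 at 0 Gy and 12.59, 13.27 and 12.96 at 12 Gy (-0.51 ± 0.15, adjusted p 0.0252 in limma), beside -0.58 for miR-342-3p. Smc4, a condensin subunit that hosts miR-15b and miR-16, gave -0.58 ± 0.17, beside -0.28 for miR-15b-5p. Mcm7, the replication helicase subunit that hosts miR-25, miR-93 and miR-106b, gave -0.03 ± 0.17 and did not pass, as its 3 miRNAs did not. Other pairs differed in direction or in call. Ctdsp1, a phosphatase gene that hosts miR-26b, rose by 0.69 ± 0.15 (adjusted p 0.00609 in limma), while miR-26b-5p gave -0.20 ± 0.06 (adjusted p 0.0316) and so fell. Pank3, a coenzyme A synthesis gene that hosts miR-103, rose by 0.75 ± 0.16, beside -0.15 for miR-103-3p, which did not pass. Mest, an imprinted gene that hosts miR-335, gave -0.69 ± 0.23 (adjusted p 0.0445 in limma), beside -0.14 for miR-335-5p, which did not pass.

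**Figure D5:**
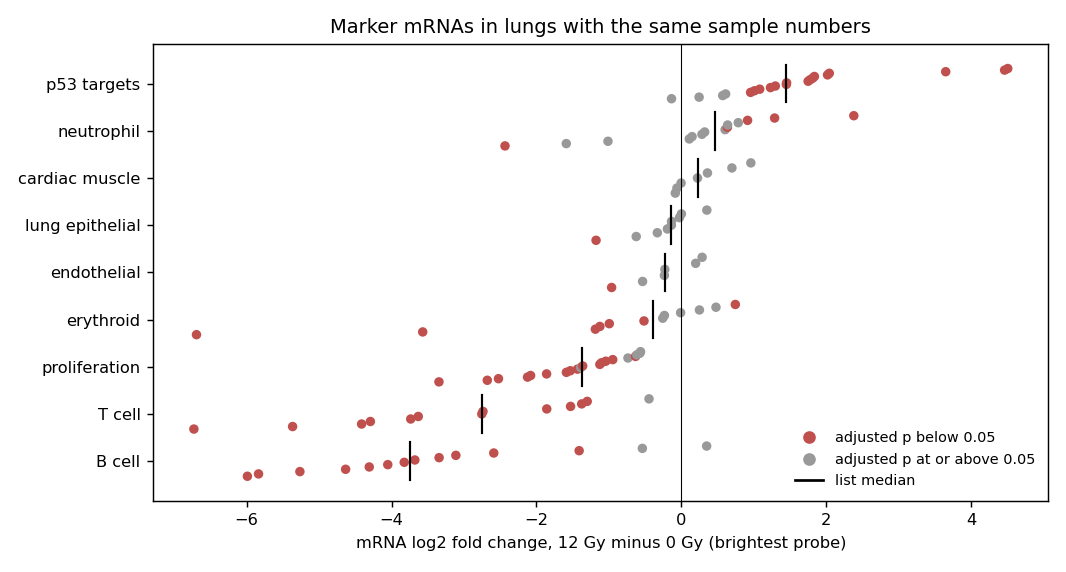
Log2 difference of 12 Gy from 0 Gy (x axis) for each tested mRNA of the marker lists (rows), 1 point a gene, red where the adjusted p is below 0.05, with a bar at the list's median. B cell genes centre on -3.75, T cell genes on -2.75 and p53 targets on 1.45.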

How the data were processed

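Lung RNA of 3 mice a dose was hybridised to Agilent 1-colour miRNA arrays, and per the file headers Feature Extraction gave the spot intensities, which the authors deposited without normalization. From the deposited median signal and median local background intensity, background was corrected by normexp (offset 0), control spots were dropped, outlier spots left out, the 18 lung arrays quantile-normalized, and log2 values averaged over the spots of a probe, after the study's methods. Probes well above background (over at least 0.5 of their spots) on at least 1 array were tested with limma 3.58.1 (R 4.3.3) over the 6 dose groups, with Benjamini-Hochberg adjustment. A probe passed at an absolute log2 difference above 1 and an adjusted p below 0.05. The mRNA arrays were treated alike. Precision is limited by the 3 arrays a group. The code was tested on simulated data.

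A miRNA is given by its brightest probe over the 6 arrays. Named miRNAs are those named by the study, up to 10 a direction that passed with no overlap of the groups, taken by size of change, and up to 4 per list, first those that passed and then the brightest, with others marked where they appear. The members and lists were chosen with earlier results of these data known. Groups come from the titles, with 12 and 0 Gy sharing no mouse number. Lung and liver samples share sample numbers, called mouse numbers here, and the labels do not say that a number is 1 animal. Alternatives were another offset, processed signals scaled to the 75th percentile, total gene signals, the deposited series values, other probe filters, fewer or more arrays, slide as a block or term, and each mouse left out.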

Additional observations from a re-analysis of the deposited data

Results flagged for a closer look

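The response to 12 Gy differed between lung and liver for 18 miRNAs, by the adjusted p of the difference itself in limma over all 36 miRNA arrays. Among them, the probes of miR-130b-3p, miR-150-5p, miR-503-5p, miR-702-3p and miR-7022-3p were not above background on any liver array at 0 or 12 Gy. No liver response could be measured for those. Among the brightest probes of the miRNAs named, that of miR-106b-5p differed by 0.447 on the log2 scale, with -0.05 in lung and -0.49 in liver. For miR-142a-3p the difference was -0.656, with a larger fall in lung than in liver. The second probe of each did not pass (0.20, adjusted p 0.316, and -0.40, adjusted p 0.298). Lung and liver arrays of a dose lay on different slides. With slide as a term, a fit added after the data were seen, the difference was 0.11 for miR-106b-5p (adjusted p 0.929 in limma) and -0.89 for miR-142a-3p (adjusted p 0.542), neither past the threshold.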

How the results depend on the processing

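Of 918 values of 46 named miRNAs under 20 other settings, 799 kept direction and side of the threshold and 26 newly passed. Another 88 either no longer passed or changed sign without passing in either fit. The last 5 were of miRNAs that had passed and changed sign, called reversed here. The 5 reversed under processed signals scaled to the 75th percentile of all probes, which moved the median of all probes to 0.79. There miR-126a-5p gave 0.62, miR-19b-3p 0.63, miR-20a-5p 0.52, miR-223-3p 0.13 and miR-342-3p 0.29, and of the 5 miRNAs past both thresholds 1 passed, while the leukocyte median stayed -0.58 from that of all probes. The cause was not tested. With the 75th percentile of probes above background on all arrays, 0 of the 46 reversed in that sense, and the leukocyte median was -0.68.

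The 5 miRNAs past both thresholds became 10 with processed signals scaled to detected probes, 31 with all probes, 9 with total gene signals, 14 with the series values, 9 with slide as a random block and 33 with slide as a fixed term in both tissues. Lower miRNAs at the adjusted p numbered 39, and 87, 0, 25, 12 and 18 with detected probes, all probes, outlier spots kept, the 6 arrays alone and both tissues together. Higher ones numbered 34, and 20 with total gene signals, 22 with probes averaged, 57 with outlier spots kept, 8 with the 6 arrays alone, 11 with both tissues, 72 with the slide block, 7 with the slide term and 14 without 0 Gy mice 1 and 21. The split of the 5 was 4 lower and 1 higher, and with outlier spots kept it was 3 and 4, with total gene signals 6 and 3 and with the series values 13 and 1. Leaving out each mouse gave 4 to 11 past both thresholds, 29 to 54 lower and 22 to 75 higher (75 without mouse 11, 22 without mouse 21 or 16). A slide term in lung alone could not be fitted for 12 against 0 Gy.

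Against 8 Gy, 0 miRNAs passed both thresholds under every setting tried, and the 1 past the adjusted p became 2 with offset 50 or the slide term and 0 to 2 without single mice. For lung against liver, 5 past both thresholds became 2 with offset 50, 3 with the tissues normalized separately, 3 with the slide term and 0 to 46 without single mice (46 without mouse 6, 15 without mouse 11, 1 without mouse 1 and 0 without mouse 16, 21 or 26). The 18 past the adjusted p became 38 with separate tissues, 3 with the slide term and 2 to 87 without single mice (87 without mouse 6, 30 without mouse 11, 4 without mouse 1, 3 without mouse 16 or 26 and 2 without mouse 21). With the sample number as a replicate block they were 4 and 17. The labels share only the number, and the deviations of the 18 same-numbered lung and liver pairs correlated from -0.157 to 0.259, so a pairing was not established. The mRNA list genes past the adjusted p numbered 74, and 60 to 76 without single mice.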

Other observations

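Muscle miRNAs varied widely from mouse to mouse within a dose. miR-1a-3p, specific to heart and skeletal muscle, had levels of 12.65, 13.70 and 12.97 at 0 Gy and 14.18, 13.52 and 14.74 at 12 Gy, with overlapping groups (1.04 ± 0.47, adjusted p 0.145 in limma). miR-206-3p, which is restricted to skeletal muscle, was high in control mouse 11 (9.30) and in irradiated mice 6 (9.67) and 16 (9.09) and low in the other 3, at 4.91 to 4.96. Of 7 muscle miRNAs tested 0 passed in either direction, beside 39 lower and 34 higher of all 418 tested, with a median of 1.04. Myh6, the atrial and ventricular myosin, also varied in the lung mRNA of those sample numbers, with levels of 14.59, 13.16 and 14.31 at 0 Gy and 14.67, 14.16 and 16.10 at 12 Gy. miR-122-5p, the liver miRNA, gave 0.37 ± 0.91.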
